A study of Mus musculus with 25 samples.

Results

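The let-7 family of microRNAs (miRNAs, short RNAs that repress messenger RNAs) was followed in small extracellular vesicles from mouse liver at 5 ages. Small extracellular vesicles are membrane-bound particles released by cells. The members described are the guide arms mmu-let-7a-5p, mmu-let-7b-5p, mmu-let-7c-5p, mmu-let-7d-5p, mmu-let-7e-5p, mmu-let-7f-5p, mmu-let-7g-5p, mmu-let-7i-5p and mmu-miR-98-5p, together with mmu-let-7j. They were picked by name, and the prefix for the mouse is dropped below. They are 10 of the 1493 entries of the deposited count table, and all 10 passed the filter on low counts, as did 391 entries in all. The mice were wild-type C57BL/6J animals aged 1 week, 6 weeks, 6 months, 12 months or 14 months, with 5 mice and 1 library per mouse at each age. Both sexes were equally represented according to the labels, which do not give the sex of each mouse. Tissue was dissociated with an enzyme kit sold for human tumours and vesicles were pelleted by ultracentrifugation, so the material is what that route recovers from whole liver. The label for batch repeats the age, so handling and age cannot be told apart.

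The let-7 miRNAs were found in the nematode Caenorhabditis elegans as regulators of developmental timing and are conserved in mammals. A miRNA hairpin yields a guide arm, which is loaded into an Argonaute protein and pairs with target messages through its seed near the 5′ end, and a passenger arm that is mostly degraded. The RNA-binding proteins LIN28A and LIN28B block the maturation of let-7 hairpins in embryonic and fetal cells, and let-7 in turn represses Lin28, Hmga2, Igf2bp and Ras family messages. In mouse liver, Lin28b and several other let-7 targets are known for high levels before birth and low levels in the adult.

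The mature sequences are shown because the members differ by only a few bases, which bears on how well their reads can be separated. The sequences are those of RefSeq on GRCm38.p6, written 5′ to 3′ with the seed (bases 2 to 8) in capitals, and all 10 members matched the RefSeq table.
let-7a-5p: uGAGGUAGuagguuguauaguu
let-7b-5p: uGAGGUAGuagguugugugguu
let-7c-5p: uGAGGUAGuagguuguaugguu
let-7d-5p: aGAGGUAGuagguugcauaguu
let-7e-5p: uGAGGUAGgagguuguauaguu
let-7f-5p: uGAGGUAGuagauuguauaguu
let-7g-5p: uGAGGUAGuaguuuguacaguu
let-7i-5p: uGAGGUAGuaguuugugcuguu
let-7j: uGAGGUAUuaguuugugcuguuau
miR-98-5p: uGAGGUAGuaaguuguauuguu

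Of these members, 9 share the seed GAGGUAG, which 11 of the 1679 mature names in the RefSeq table carry. The exception is let-7j, whose seed is GAGGUAU. Counting positions from 1 at the 5′ end, let-7j differs from let-7i-5p by G8U over the 22 bases they have in common and by 2 further bases at its 3′ end. Compared with let-7a-5p, let-7c-5p carries A19G, let-7e-5p carries U9G and let-7f-5p carries G12A as the single difference. From let-7a-5p to let-7g-5p the differences are G12U and U18C, and from let-7g-5p to let-7i-5p they are A17G and A19U.

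The genes lie on several chromosomes, some of them clustered, and are given here in GRCm38.p6 with GENCODE M21 annotation. The mature let-7g-5p arm of Mirlet7g occupies chromosome 9 from 106178846 to 106178867 on the plus strand, inside an intron of Wdr82. The mature let-7i-5p arm of Mirlet7i lies on chromosome 10 from 122985698 to 122985719 on the minus strand, in an exon of the transcribed processed pseudogene D630033A02Rik. Mirlet7a-1, Mirlet7f-1 and Mirlet7d lie together on chromosome 13 in exons of the long noncoding RNA gene 6720427I07Rik. Mirlet7b and Mirlet7c-2 share exons of the noncoding transcript Lncppara on chromosome 15. Mirlet7c-1 is in an intron of Mir99ahg on chromosome 16 and Mirlet7e in an intron of Spaca6 on chromosome 17. Mirlet7f-2 and Mir98 lie 786 bases apart in an intron of Huwe1 on the X chromosome. The mature let-7j position, chromosome 3 from 140028281 to 140028304 on the plus strand, overlaps no other annotated gene.

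Library totals ran from 641579 to 6888928 counts. The deepest age on average was 1 week and the shallowest 6 weeks, with means of 1046872 counts per library at 6 weeks and 3348808 at 1 week. Levels below are counts per 1000000 (CPM) scaled with TMM factors, which set each library against the bulk of its miRNAs. The 10 members together held 4.78% ± 0.472 of library counts in mice of 1 week, 7.47% ± 0.575 in those of 6 weeks, 8.24% ± 0.524 in those of 6 months, 8.03% ± 0.570 in those of 12 months and 7.63% ± 0.715 in those of 14 months (SD, n = 5 each). The summed level was 30767 ± 1238 CPM in mice of 1 week, 75904 ± 7384 CPM in those of 6 weeks, 92596 ± 14924 CPM in those of 6 months, 91403 ± 16195 CPM in those of 12 months and 93830 ± 14974 CPM in those of 14 months (SD, n = 5 each). Every adult library lay above every 1-week library on both scales, with or without let-7j. The sums above include let-7j, whose counts are nearly those of let-7i-5p. Without let-7j the family held 3.81% to 4.87% of counts in the 1-week libraries and 6.84% to 8.23% in the 6-week libraries. The summed level was then 26496 to 29305 CPM at 1 week and 65678 to 85117 CPM at 6 weeks. The 95% Wilson interval of a library's family percentage was at most 0.064 percentage points to either side, counting error only.

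**Figure D1:**
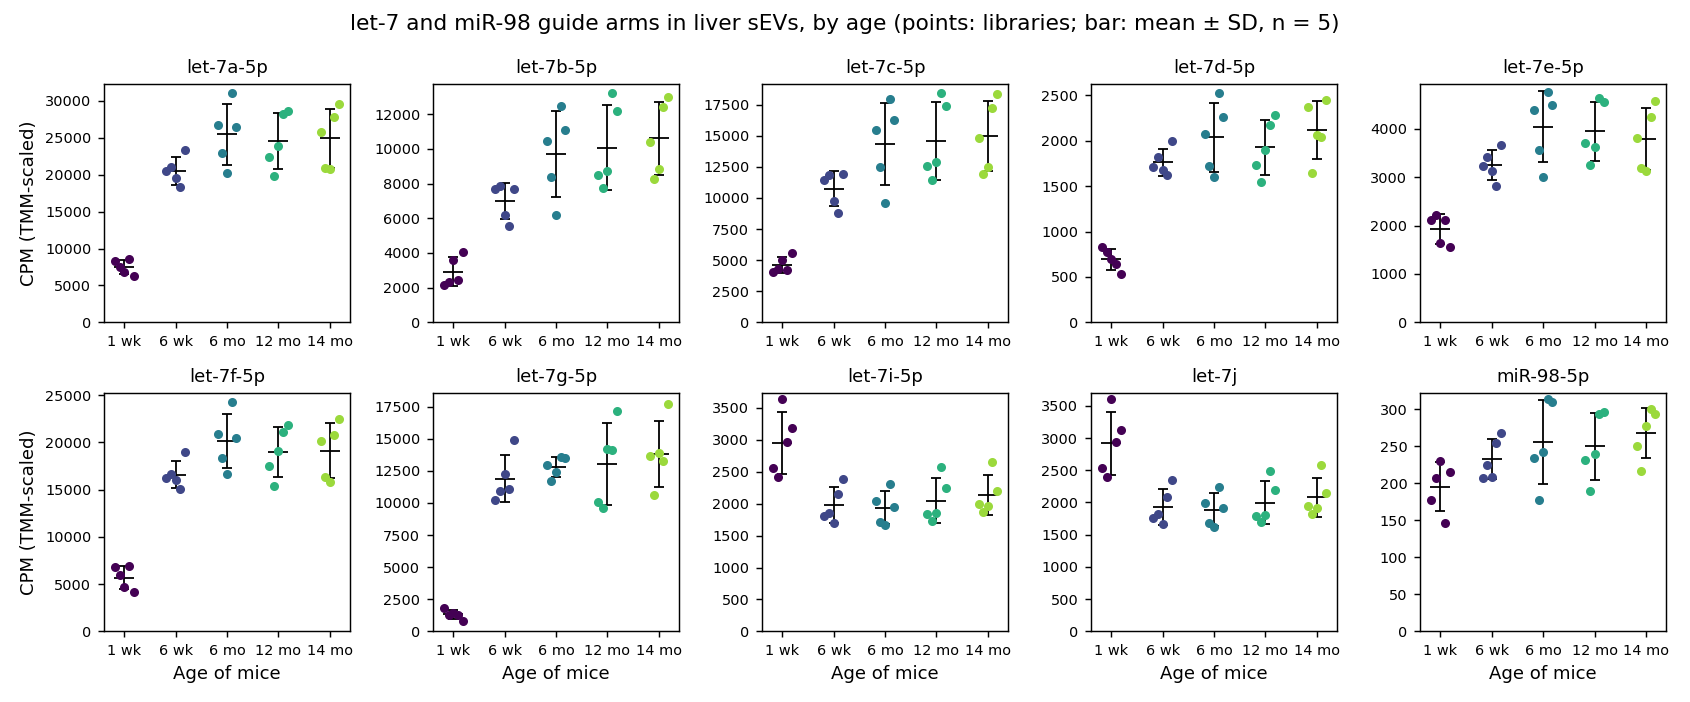
Level of each member in CPM (vertical axis, linear, from 0) by age of the mice (horizontal axis), where points are libraries and bars the mean ± SD of 5 mice. let-7g-5p lies at or above 9627 CPM in all 20 adult libraries and between 814 and 1821 CPM at 1 week, while let-7i-5p and let-7j are lower on average at each adult age than at 1 week.

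The member that changed most at 6 weeks against 1 week was let-7g-5p. It was counted at 10238, 10940, 11105, 12262 and 14917 CPM in the 6-week libraries, against 814, 1280, 1309, 1458 and 1821 CPM in the 1-week libraries. The lowest 6-week library was thus several times above the highest 1-week library. The mean was 11892 ± 1840 CPM at 6 weeks and 1336 ± 363 CPM at 1 week (SD, n = 5 each). The log2 fold change was 3.15 ± 0.19 (SE), an 8.90-fold rise, with an adjusted p of 7.70e-13 in edgeR's quasi-likelihood test with Benjamini-Hochberg adjustment over the 391 entries. It ranked 15th among the 391 log2 fold changes. At the later ages let-7g-5p was counted at 11670 to 13544 CPM at 6 months, 9627 to 17151 CPM at 12 months and 10612 to 17735 CPM at 14 months.

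The close relative let-7i-5p went the other way. Its level was 1701, 1801, 1859, 2147 and 2383 CPM in the 6-week libraries, against 2418, 2559, 2961, 3180 and 3638 CPM in the 1-week libraries. The groups did not overlap, but the highest 6-week library and the lowest 1-week library were almost level. let-7i-5p averaged 1978 ± 281 CPM at 6 weeks and 2951 ± 491 CPM at 1 week (SD, n = 5 each), a log2 fold change of -0.58 ± 0.15 (SE) with an adjusted p of 9.22e-04 in edgeR. With the log2 library total as a covariate the log2 fold change was -0.25 and the adjusted p 0.187, so the call was not kept in that fit. Over the 20 adult libraries let-7i-5p ran from 1669 to 2649 CPM. The let-7j entry had 1935 ± 278 CPM at 6 weeks and 2917 ± 487 CPM at 1 week (SD, n = 5 each), a log2 fold change of -0.59 ± 0.14 (SE, edgeR adjusted p = 7.18e-04). Its counts were between 0.970 and 0.992 of those of let-7i-5p in all 25 libraries, so the pair of entries is not a pair of separate results.

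The 2 most abundant members, let-7a-5p and let-7f-5p, rose side by side. let-7a-5p was counted at 18283, 19524, 20462, 21053 and 23316 CPM in the 6-week libraries, against 6346, 6763, 7482, 8283 and 8549 CPM in the 1-week libraries. For let-7f-5p the values were 15108, 15988, 16239, 16688 and 18954 CPM in the 6-week libraries, against 4199, 4680, 5954, 6780 and 6897 CPM in the 1-week libraries. For both, each 6-week library lay above each 1-week library by a wide margin. The log2 fold change was 1.46 ± 0.14 for let-7a-5p (SE, edgeR adjusted p = 9.54e-10) and 1.54 ± 0.15 for let-7f-5p (SE, edgeR adjusted p = 1.06e-09).

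The members let-7b-5p, let-7c-5p and let-7d-5p rose by similar amounts. let-7b-5p averaged 6988 ± 1047 CPM at 6 weeks and 2919 ± 850 CPM at 1 week, and let-7c-5p 10741 ± 1397 CPM at 6 weeks and 4635 ± 648 CPM at 1 week (SD, n = 5 each). let-7d-5p averaged 1764 ± 148 CPM at 6 weeks and 695 ± 116 CPM at 1 week (SD, n = 5 each). Their log2 fold changes were 1.26 ± 0.21, 1.21 ± 0.17 and 1.34 ± 0.15 in the same order (SE), with edgeR adjusted p of 6.44e-06, 6.55e-07 and 2.03e-08. None of these 3 overlapped between the ages.

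A smaller difference was seen for let-7e-5p and none that passed the test for miR-98-5p. let-7e-5p had 2809, 3136, 3233, 3409 and 3661 CPM in the 6-week libraries, against 1564, 1633, 2119, 2119 and 2220 CPM in the 1-week libraries. Its groups did not overlap, and the log2 fold change was 0.75 ± 0.15 (SE, edgeR adjusted p = 8.19e-05). The call was lost with RLE size factors (0.28, adjusted p = 0.0958), library totals alone (0.078, 0.593), no filter (0.44, 0.133) and DESeq2 (0.28, 0.0902). miR-98-5p had 208, 209, 225, 255 and 268 CPM in the 6-week libraries, against 147, 178, 207, 216 and 230 CPM in the 1-week libraries, which overlap. Its log2 fold change was 0.26 ± 0.17 (SE, edgeR adjusted p = 0.188), and its sign depended on the scaling, at -0.21 under RLE size factors and -0.41 on library totals alone.

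In all, 7 members were higher and 2 lower at 6 weeks than at 1 week, and 1 did not pass, with miR-98-5p the single member whose sign flipped between scalings. The 2 lower entries, let-7i-5p and let-7j, are not separate results. Of all 391 entries, 71.9% passed in this comparison, 35.0% higher and 36.8% lower, so most miRNAs of these vesicles differed between the ages, and 9 passing members of 10 is not read as particular to let-7. On library totals alone 6 members were higher and 3 lower, and over all entries 88 were higher and 178 lower, against 137 and 144 with TMM factors. The median log2 fold change was 1.24 over the members and 0.12 over all entries tested. In 9 of the 10 members the CPM groups did not overlap, against 57.3% of all entries. RLE size factors moved the median of all entries by -0.46 and library totals by -0.65 on the log2 scale, and the fold change of each member moved by about as much as that median.

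The make-up of the family was then compared free of the scaling to the rest of the library, with the summed counts of the 10 members as the size of each library. A change in a member is here a change in its share of family counts. The share of let-7g-5p was 13.7%, 14.1%, 16.4%, 17.0% and 17.1% in the 6-week libraries, against 2.75%, 4.06%, 4.36%, 4.66% and 5.81% in the 1-week libraries. The share of let-7i-5p was 2.36%, 2.40%, 2.41%, 2.72% and 3.17% in the 6-week libraries, against 8.17%, 8.24%, 9.18%, 10.7% and 11.6% in the 1-week libraries. Both pairs of groups were far apart, in opposite directions. The log2 change relative to the family total was 1.85 ± 0.15 for let-7g-5p (SE, edgeR adjusted p = 6.42e-11) and -1.88 ± 0.12 for let-7i-5p (SE, edgeR adjusted p = 2.20e-12).

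The shares of let-7e-5p and miR-98-5p were also lower at 6 weeks. let-7e-5p made up 4.28% ± 0.110 of family counts at 6 weeks and 6.28% ± 1.02 at 1 week (SD, n = 5 each), a log2 change of -0.55 ± 0.10 (SE, edgeR adjusted p = 1.51e-05). Its level in CPM was thus higher at 6 weeks while its share of the family was lower. miR-98-5p made up 0.309% ± 0.0393 at 6 weeks and 0.638% ± 0.122 at 1 week (SD, n = 5 each), a log2 change of -1.05 ± 0.16 (SE, edgeR adjusted p = 3.22e-06). The shares of let-7a-5p, let-7b-5p, let-7c-5p and let-7d-5p did not pass the test, with log2 changes of 0.16 ± 0.07, -0.05 ± 0.14, -0.10 ± 0.10 and 0.04 ± 0.11 (SE). Of these, let-7a-5p had shares that did not overlap, at 27.1% ± 0.265 at 6 weeks and 24.3% ± 2.58 at 1 week (SD, n = 5 each), with an edgeR adjusted p of 0.0524. It passed in 4 of 28 other settings, namely without mouse 1, 3 or 5 and without let-7g-5p in the total (0.34, adjusted p = 2.42e-04). let-7f-5p passed narrowly at 0.24 ± 0.10 (SE, edgeR adjusted p = 0.0299), its shares overlapped, and the call was lost in 6 of 28 other settings, namely without mouse 4, 27, 8 or 9, without let-7j in the total and with the library total as covariate.

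Within the family, 2 members were thus higher, 4 lower and 4 did not pass at 6 weeks against 1 week. The 4 lower ones include both let-7i-5p and let-7j, which are not separate results. Of all entries fitted to the same family total 71.1% passed, 13.3% higher and 57.8% lower. Shares of 6 members did not overlap between the ages, against 54.2% of all entries. Leaving let-7j out of the family total gave 1.75 for let-7g-5p and -1.99 for let-7i-5p, and leaving out let-7g-5p gave -1.69 for let-7i-5p. With the log2 library total as a covariate these changes were 1.83 for let-7g-5p and -1.84 for let-7i-5p.

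**Figure D2:**
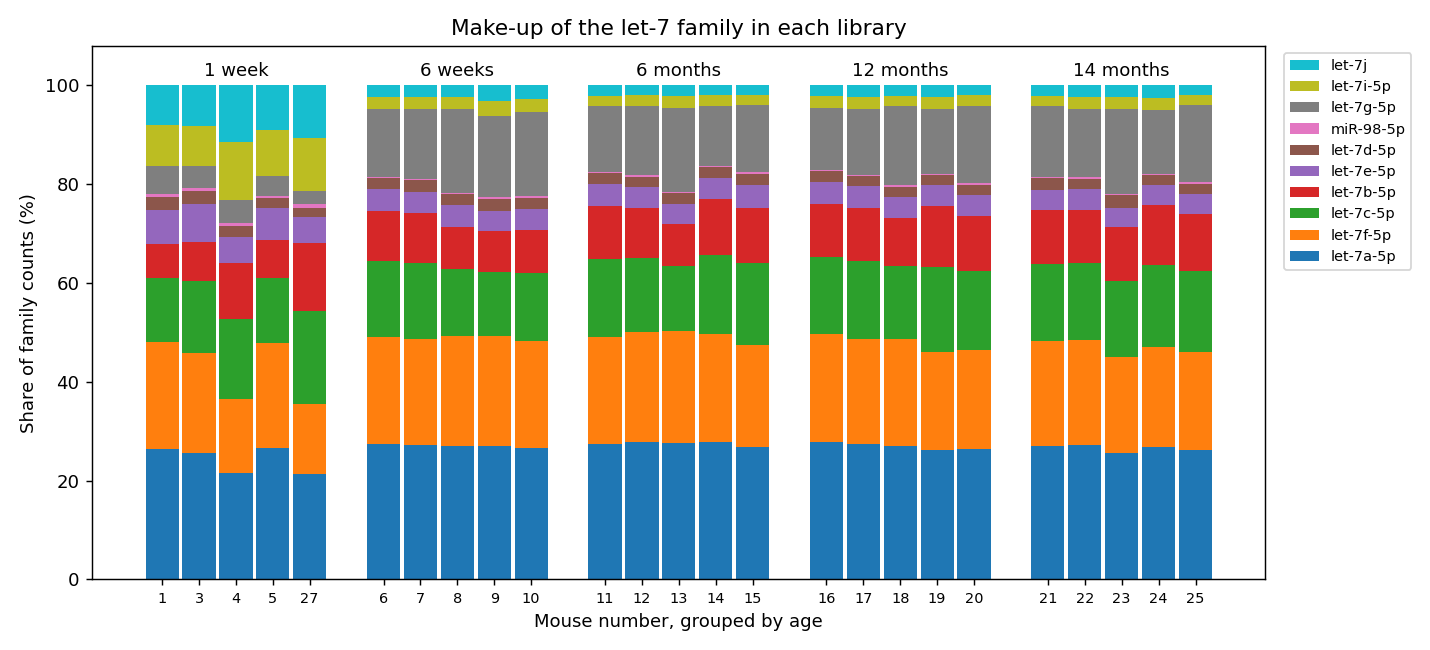
Share of family counts held by each of the 10 members (stacked bars, percent, vertical axis) in each of the 25 libraries, ordered by age (horizontal axis). let-7g-5p fills 12.2% to 17.1% of the adult bars and 2.75% to 5.81% of the 1-week bars, and the let-7i-5p and let-7j bands are widest at 1 week.

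**Figure D3:**
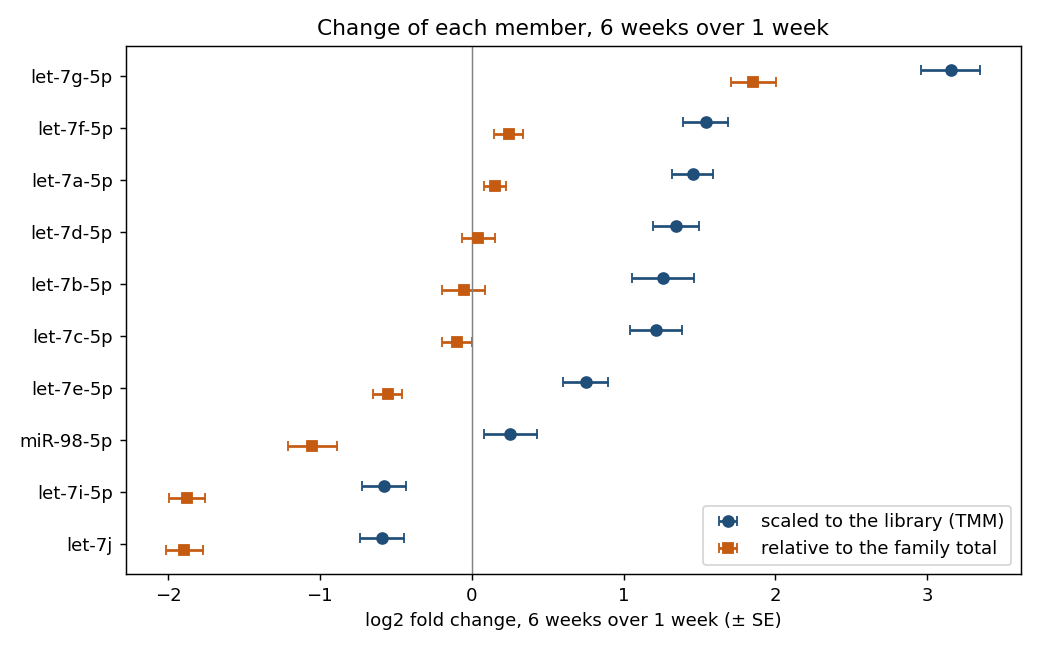
Log2 fold change of each member, 6 weeks over 1 week, with its SE, on the TMM scale and relative to the family total. let-7g-5p is highest on both scales at 3.15 and 1.85, let-7i-5p and let-7j are below 0 on both, and miR-98-5p is near 0 on the TMM scale, where its sign flips under RLE size factors and library totals, and at -1.05 relative to the family.

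The ratio of let-7g-5p to let-7i-5p counts needs no scaling. It was 5.17, 5.69, 5.88, 6.26 and 7.21 in the 6-week libraries, against 0.256, 0.401, 0.442, 0.529 and 0.711 in the 1-week libraries. let-7g-5p was thus the more abundant of these miRNAs in every 6-week library and let-7i-5p in every 1-week library. Over the 20 adult libraries the ratio ran from 5.01 to 8.04. The ratio of let-7g-5p to let-7f-5p averaged 0.715 ± 0.0689 at 6 weeks and 0.236 ± 0.0527 at 1 week (SD, n = 5 each).

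The order of levels changed accordingly, and since all members have 22 bases except let-7j with 24, their levels can be set side by side. At 6 weeks the order by mean CPM was let-7a-5p, let-7f-5p, let-7g-5p, let-7c-5p, let-7b-5p, let-7e-5p, let-7i-5p, let-7j, let-7d-5p and miR-98-5p. At 1 week it was let-7a-5p, let-7f-5p, let-7c-5p, let-7i-5p, let-7b-5p, let-7j, let-7e-5p, let-7g-5p, let-7d-5p and miR-98-5p. let-7g-5p thus ranked 3rd at 6 weeks and 8th at 1 week. At 6 weeks the ranges of let-7g-5p and let-7c-5p overlapped, with let-7g-5p higher in 3 of 5 libraries, as did those of let-7a-5p and let-7f-5p and of the run of let-7i-5p, let-7j and let-7d-5p. At 1 week the ranges of neighbours in the order did not overlap between let-7c-5p and let-7i-5p, let-7j and let-7e-5p, and let-7d-5p and miR-98-5p, and the rest overlapped. At 6, 12 and 14 months let-7c-5p stood before let-7g-5p, with overlapping ranges. The capture and ligation of each sequence also set its count, so the order is that of counts in these libraries.

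Among the adult ages no member passed the test. The counts of passing members were 0 of 10 for 6 months against 6 weeks, where 1.79% of all entries passed, and 0 for 14 months against 6 weeks, where 3.84% passed. For 12 months against 6 months and for 14 months against 12 months no member and no entry (0%) passed in edgeR. At an unadjusted p under 0.05 the members counted were 4 for 6 months against 6 weeks, 0 for both later steps and 3 for 14 months against 6 weeks. The share of all entries at that unadjusted cut-off is not given, here or below, so such counts are not read as particular to let-7. DESeq2 also called 0 members in each of these 4 comparisons. The comparisons share libraries, the 6-week ones also with the comparison against 1 week. An F test over the 4 adult ages called 0 members in edgeR, with adjusted p from 0.285 to 0.918 and 2 members at an unadjusted p under 0.05, and 0 in DESeq2, while 2.56% of all entries passed in edgeR. The same test over all 5 ages called 9 members, all but miR-98-5p at an adjusted p of 0.144, with 75.4% of all entries passing. Relative to the family total it called 5 members over the 5 ages (74.4% of all entries) and 0 over the adult ages (2.30%), with 0 at an unadjusted p under 0.05.

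The largest of these adult differences was that of let-7b-5p. It was counted at 8279, 8860, 10397, 12427 and 12998 CPM in the 14-month libraries, against 5563, 6171, 7655, 7706 and 7843 CPM in the 6-week libraries. The groups did not overlap, as in 7.93% of all entries. The log2 fold change was 0.60 ± 0.20 (SE, edgeR adjusted p = 0.114), and without a filter on low counts it was 0.72 with an adjusted p of 0.0381. let-7c-5p followed with 14944 ± 2824 CPM at 14 months and 10741 ± 1397 CPM at 6 weeks (SD, n = 5 each), a log2 fold change of 0.48 ± 0.17 (SE, edgeR adjusted p = 0.120). The log2 fold changes of the 10 members ran from 0.11 to 0.60 with a median of 0.22, against -0.04 over all entries. On library totals alone 7 of them turned negative.

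Within the adult ages the share of each of the 10 members in family counts varied less between libraries than its level in CPM. Over the 20 adult libraries let-7a-5p held 27.0% ± 0.608 of family counts (SD), let-7f-5p 21.2% ± 0.931, let-7c-5p 15.3% ± 1.18, let-7g-5p 14.7% ± 1.67 and let-7b-5p 10.4% ± 1.16. let-7e-5p held 4.25% ± 0.196, let-7i-5p 2.31% ± 0.289, let-7j 2.26% ± 0.282, let-7d-5p 2.22% ± 0.149 and miR-98-5p 0.287% ± 0.0357 (SD, n = 20 each). The share of let-7a-5p had a coefficient of variation of 2.25%, against 16.1% for its level in CPM. For let-7i-5p the gap was small, at 12.5% for its share and 14.3% for its level. No member passed relative to the family total in any adult comparison, where 1.79% of all entries passed for 6 months against 6 weeks, 2.56% for 14 months against 6 weeks and 0% for the other two. At an unadjusted p under 0.05 there were 2 members for 6 months against 6 weeks and 0 in the other comparisons. The 2 were let-7i-5p and let-7j, which are not separate results. Shares that did not overlap were let-7b-5p and let-7c-5p, higher at 14 months than at 6 weeks, and let-7e-5p and let-7f-5p, lower, while 6.65% of all entries did not overlap in that comparison. For 6 months against 6 weeks, let-7i-5p and let-7j had lower shares without overlap, at 2.10% ± 0.113 and 2.05% ± 0.103 at 6 months and 2.61% ± 0.344 and 2.55% ± 0.332 at 6 weeks (SD, n = 5 each), against 4.86% of all entries.

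The ratios of let-7c-5p to let-7b-5p and of let-7f-5p to let-7a-5p drifted over the adult ages. They are given as a description because they were picked out after the values were seen, and they do not speak for other close pairs. let-7c-5p counts were 1.54 ± 0.0401 times those of let-7b-5p in the 6-week libraries, 1.49 ± 0.0416 times in the 6-month, 1.45 ± 0.0395 times in the 12-month and 1.41 ± 0.0193 times in the 14-month libraries (SD, n = 5 each). The highest 14-month ratio, 1.44, lay below every 6-week ratio. let-7f-5p counts were 0.809 ± 0.0151 times those of let-7a-5p in the 6-week libraries, 0.792 ± 0.0195 times in the 6-month, 0.774 ± 0.0186 times in the 12-month and 0.767 ± 0.0144 times in the 14-month libraries (SD, n = 5 each). This ratio, too, was without overlap between 14 months and 6 weeks.

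The 1-week libraries differed among themselves, and these values too were picked out after they were seen. In mice 4 and 27 the ratio of let-7c-5p to let-7b-5p was 1.41 and 1.37, against 1.73 to 1.86 in the other 1-week mice. In the same mice the ratio of let-7f-5p to let-7a-5p was 0.692 and 0.662, against 0.796 to 0.818. These libraries also had the highest let-7i-5p, at 3638 and 3180 CPM, and the highest let-7b-5p, at 3576 and 4071 CPM. The muscle miRNA miR-206-3p was at most 1.94 CPM in the 6-week libraries, against 481 and 990 CPM in 1-week mice 4 and 27 and 50.4 to 275 CPM in the other 1-week mice. Its part in the let-7 values was not tested.

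Passenger arms come from the same hairpins as the guides, and most were too rare to test. Of 12 listed passenger arms 5 were tested, and at 6 weeks against 1 week 3 were higher, 1 lower and 1 did not pass. Of all 391 entries 71.9% passed, 35.0% higher and 36.8% lower, so these counts are not read as particular to passenger arms. Their median log2 fold change of 2.28 is the value of let-7a-1-3p itself. let-7a-1-3p averaged 12.1 ± 3.46 CPM at 6 weeks and 2.50 ± 1.04 CPM at 1 week (SD, n = 5 each), a log2 fold change of 2.28 ± 0.32 (SE, edgeR adjusted p = 6.52e-07). Its raw counts were only 7 to 24 per 6-week library and 6 to 14 per 1-week library. The let-7c-2-3p sequence is identical to that of let-7a-1-3p and had the same counts in the libraries of both ages. let-7f-2-3p differs from it by 1 base over the 21 bases compared and had a log2 fold change of 2.39 ± 0.36 (SE, edgeR adjusted p = 1.74e-06). The 3 entries are therefore not separate results.

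The passenger arm of let-7d went against its guide. The sequence of let-7d-3p is shown because it shares no seed with the family, with capitals again marking bases 2 to 8.
let-7d-3p: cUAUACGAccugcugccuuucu
It was counted at 9.74, 13.1, 18.4, 25.1 and 44.1 CPM in the 6-week libraries, against 30.4, 72.3, 104, 104 and 174 CPM in the 1-week libraries. The groups overlapped by a single 1-week library, that of mouse 1. The log2 fold change was -2.19 ± 0.48 (SE, edgeR adjusted p = 2.43e-04), while that of let-7d-5p was 1.34. The ratio of let-7d-5p to let-7d-3p was 41.4, 67.9, 90.8, 152 and 167 in the 6-week libraries, against 3.08, 6.70, 7.45, 8.85 and 27.3 in the 1-week libraries, with no overlap. It ran from 41.4 to 229 over the adult libraries.

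**Figure D4:**
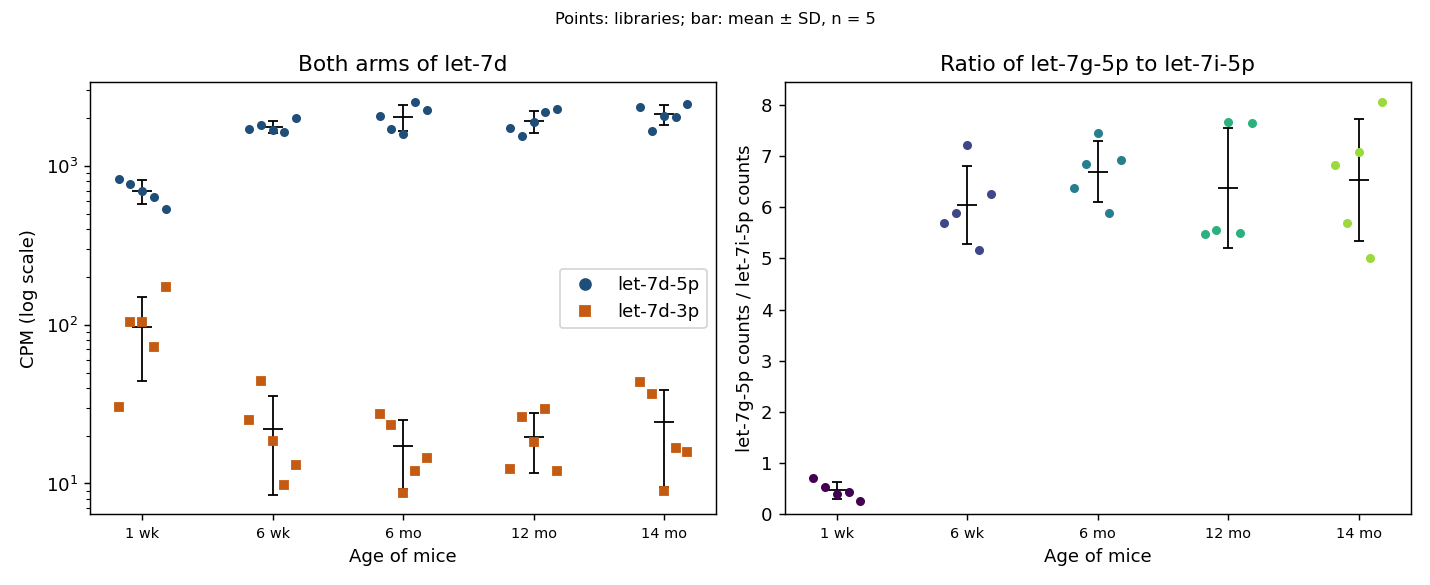
Left, let-7d-5p and let-7d-3p in CPM (log axis) by age, and right, the ratio of let-7g-5p to let-7i-5p counts (linear axis) by age, where points are libraries and bars the mean ± SD of 5 mice. let-7d-3p is at 8.77 to 44.1 CPM in the adult libraries and 30.4 to 174 CPM at 1 week, while the let-7g-5p to let-7i-5p ratio is at least 5.01 in adults and at most 0.711 at 1 week.

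Several let-7 genes have neighbours of the miR-99, miR-100 and miR-125 families on the same strand. Of 11 such listed entries 9 were tested. At 6 weeks against 1 week 3 were higher, 4 lower and 2 did not pass, with a median log2 fold change of -0.48. Of all 391 entries 71.9% passed, 35.0% higher and 36.8% lower, so these counts are not read as particular to the neighbours. Mir99b lies 99 bases and Mir125a 368 bases from Mirlet7e, and entries of both were lower while let-7e-5p was higher on the TMM scale. As given above, the let-7e-5p call was lost in 4 other settings, and its log2 change relative to the family total was -0.55. miR-125a-3p, also from Mir125a, had a log2 fold change of -0.48 and did not pass. miR-99b-3p averaged 3.27 ± 3.30 CPM at 6 weeks and 22.1 ± 8.85 CPM at 1 week (SD, n = 5 each), a log2 fold change of -2.58 ± 0.54 (SE, edgeR adjusted p = 1.53e-04). Its raw counts were 0 to 8 per 6-week library and 82 to 117 per 1-week library. miR-125a-5p was counted at 369, 461, 925, 1146 and 1227 CPM in the 6-week libraries, against 302, 1047, 1261, 5812 and 14065 CPM in the 1-week libraries. The highest of these 1-week values are those of mice 4 and 27, and the groups overlap. Its log2 fold change was -2.45 ± 0.68 (SE, edgeR adjusted p = 2.45e-03), was -1.36 without mouse 27, and did not pass with the library total as a covariate (adjusted p = 0.0805).

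Mir99a lies 657 bases and Mir125b-2 46529 bases from Mirlet7c-1. miR-99a-3p averaged 11.6 ± 3.93 CPM at 6 weeks and 2.31 ± 1.86 CPM at 1 week (SD, n = 5 each), a log2 fold change of 2.39 ± 0.48 (SE, edgeR adjusted p = 8.36e-05). Its raw counts were only 6 to 31 per 6-week library and 3 to 22 per 1-week library. miR-125b-5p, which also comes from a gene near Mirlet7a-2, had 746, 808, 1253, 1364 and 1730 CPM in the 6-week libraries, against 355, 1077, 1227, 4487 and 10358 CPM in the 1-week libraries. Again mice 4 and 27 held the high 1-week values. The log2 fold change was -1.57 ± 0.59 (SE, edgeR adjusted p = 0.0207), and without mouse 27 it was -0.60 with an adjusted p of 0.283. The call for miR-125b-5p was lost in 4 of 30 other settings, the fit without mouse 27 among them. No neighbour and no passenger arm passed in any of the 4 adult comparisons.

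The let-7k entry carries the same seed as the family but was not a member. Over its 19 bases it differs from let-7b-5p only by U9G, and how reads that fit both were assigned is not given. Its raw counts were 14 to 46 per 6-week library and 18 to 128 per 1-week library. It averaged 22.8 ± 2.89 CPM at 6 weeks and 7.43 ± 3.31 CPM at 1 week (SD, n = 5 each), a log2 fold change of 1.60 ± 0.29 (SE, edgeR adjusted p = 2.42e-05).

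How closely members followed each other was set beside how much their sequences differ, as a description across the same libraries. Of the 45 pairs, 4 differ by a single base, and the SD of their log2 count ratio over the 25 libraries ran from 0.073 for let-7a-5p with let-7f-5p to 0.30 for let-7a-5p with let-7e-5p. let-7i-5p and let-7j, with 1 substitution and 2 extra bases, had an SD of 0.00865. The other 40 pairs had SDs from 0.15 to 1.60. Over the 20 adult libraries the single-base pairs ran from 0.042 to 0.13, let-7i-5p with let-7j was at 0.0052 and the other pairs ran from 0.076 to 0.30. let-7g-5p and let-7i-5p, 2 bases apart, had an SD of 1.59 over all libraries but 0.21 over the 20 adult libraries. How reads that fit several members were assigned is not given in the sources used here, and its part in these ratios was not tested.

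**Figure D5:**
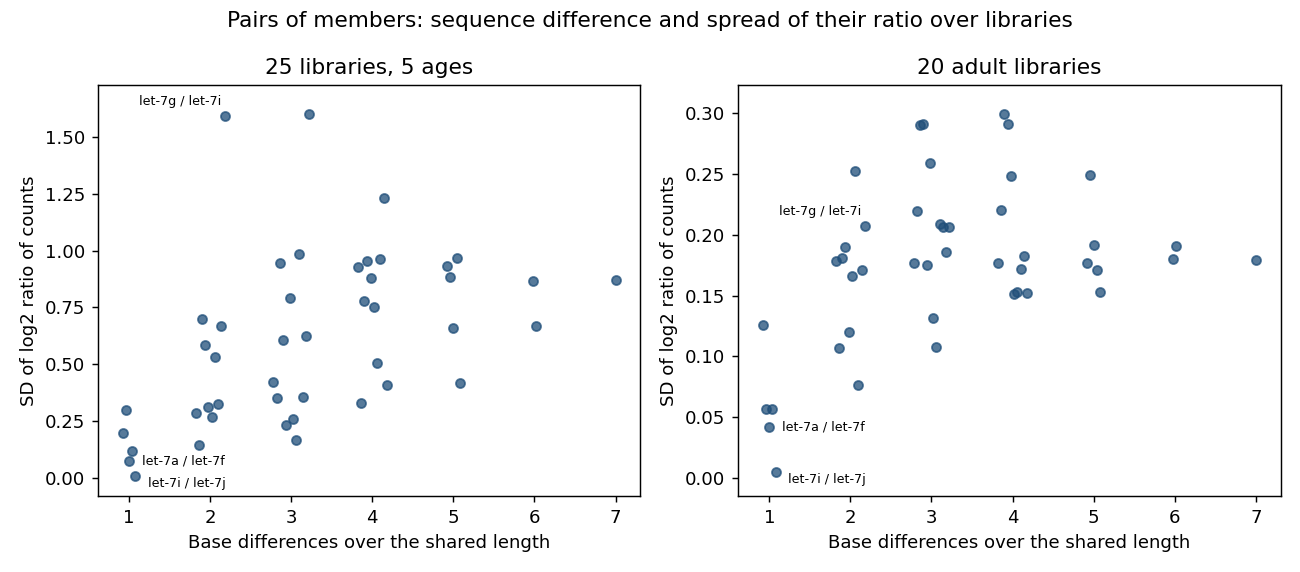
SD of the log2 count ratio of each of the 45 member pairs (vertical axis, linear) against the number of base differences over the length the mature sequences share (horizontal axis, extra 3′ bases of let-7j not counted, points spread sideways for legibility), over 25 libraries on the left and 20 adult libraries on the right. The lowest SD in both panels is that of let-7i-5p with let-7j, at 0.00865 and 0.0052, followed by let-7a-5p with let-7f-5p at 0.073 and 0.042. let-7g-5p with let-7i-5p reaches 1.59 on the left and is at 0.21 on the right.

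Outside the 10 members, the miRNAs whose log2 CPM was most like that of let-7g-5p over the 25 libraries were miR-30c-5p (r = 0.991), miR-192-3p (0.990), miR-194-5p (0.983), miR-139-5p (0.975) and miR-32-5p (0.974). Among the members let-7f-5p was at 0.976, let-7d-5p at 0.975 and let-7a-5p at 0.973, and let-7i-5p was at -0.68. The gap between 1 week and the adults sets most of these values. After subtraction of each age's mean the closest outside the members were miR-30c-5p (0.896), miR-192-3p (0.836), miR-19b-3p (0.812), miR-19a-3p (0.808) and miR-30b-5p (0.806). Among the members the values were then 0.794 for let-7d-5p, 0.712 for let-7f-5p, 0.665 for let-7a-5p, 0.595 for let-7e-5p, 0.376 for miR-98-5p, 0.284 for let-7j, 0.281 for let-7i-5p, 0.270 for let-7c-5p and 0.130 for let-7b-5p. Within each library the miRNAs compared share its depth and scaling, and no p is given.

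Markers of liver and blood cell types, and of skeletal and heart muscle, also moved between 1 week and 6 weeks. Of all 391 entries 71.9% passed in this comparison, 35.0% higher and 36.8% lower. The counts of passing markers are therefore not read as particular to these lists. The 5 hepatocyte markers were all higher at 6 weeks, with summed levels of 668618 to 756497 CPM at 6 weeks and 400168 to 572439 CPM at 1 week. Of 5 leukocyte markers 4 were lower, with sums of 2163 to 2839 CPM at 6 weeks and 4966 to 5592 CPM at 1 week. The 5 markers of biliary and other epithelium were lower, with sums of 355 to 463 CPM at 6 weeks and 846 to 1368 CPM at 1 week. Of 4 erythroid markers 3 were lower, with sums of 165 to 485 CPM at 6 weeks and 308 to 819 CPM at 1 week. Of 5 skeletal and heart muscle markers 2 were tested and both were lower, with sums of 1.94 to 8.38 CPM at 6 weeks and 59.8 to 1123 CPM at 1 week. Of 4 stellate and smooth muscle markers 2 were higher, with sums of 6207 to 7552 CPM at 6 weeks and 3767 to 5910 CPM at 1 week, and 1 of 2 endothelial markers was higher, with sums of 44651 to 53652 CPM at 6 weeks and 21083 to 38924 CPM at 1 week. No marker in the table was at 0 in every library of either age. Their part in the let-7 differences was not tested, and in bulk vesicle RNA fewer contributing cells of a type and less RNA per cell cannot be told apart.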

How the data were processed

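The data are 25 miRNA libraries of liver small extracellular vesicles, from 5 mice at each of 5 ages. Per the labels, the RNA came from a miRNeasy Serum/Plasma kit, the library kit was QIAseq miRNA and the sequencer an Illumina NovaSeq. The authors deposited 1 table of raw counts with 1493 entries. Bowtie, edgeR and the build mm10 are named without versions, per the submitters' processing notes. Whether a count is a read or a molecular identifier, and how mismatches and reads that fit several miRNAs were handled, is not given in the sources used here.

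Entries passing filterByExpr (391 of 1493) were tested in edgeR 4.0.16 with limma 3.58.1 and R 4.3.3. The model was quasi-likelihood with TMM factors and robust spread over all 25 libraries. Benjamini-Hochberg adjustment ran over all 391 entries at a threshold of 0.05. A second fit used the summed counts of the 10 members as library size. The SE is the log2 fold change over the root of its F statistic, so it is approximate. The steps were tested on simulated data. No library duplicated another of its age over 50 such pairs (smallest chi-square per degree of freedom 12.1). The alternatives were RLE size factors, library totals, no filter, DESeq2 1.42.0, the log2 library total as covariate, other family totals and each library left out. The replicates are separate mice. Named were all members and, from each list of related miRNAs, up to 4 tested entries with the largest change at 6 weeks against 1 week. The values of miR-206-3p by mouse were chosen after they were seen. Likeness to let-7g-5p is Pearson's r of log2(CPM + 1). The members, lists and tests were chosen with earlier results of these data known. Sequences and positions are from RefSeq (GRCm38.p6), and neighbouring genes from GENCODE M21.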

Additional observations from a re-analysis of the deposited data

Results flagged for a closer look

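Of 115 groups of 5 libraries examined for a library far from the other 4, 3 held one, where chance gives about 1 in 20. The library of mouse 27 at 1 week had 6889000 counts, against at most 2622000 in the other 1-week libraries. It is the library with the lowest let-7g-5p level, and its let-7d-3p level was the highest. The library of mouse 14 at 6 months had 2485000 counts, against at most 1259000 in the others of that age. The family made up 8.456% of counts in the 6-week library of mouse 10, against at most 7.395% in the other 6-week libraries.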

How the results depend on the processing

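No paired analysis was possible because no mouse number occurs at more than 1 age. The number of members called kept within 1.5 times its value in every comparison and setting run except 14 months against 6 weeks without a filter, where 1 member (let-7b-5p) was called in place of 0. For 6 weeks against 1 week, leaving out each library kept 9 calls throughout, and the family mix had 5 to 7. miR-98-5p turned round at 6 weeks against 1 week with RLE size factors (-0.21), library totals (-0.41, called), no filter (-0.018) and DESeq2 (-0.21), as did miR-125b-2-3p (-0.26, -0.46, -0.062 and -0.26). let-7e-5p lost its call under those 4, and with the library total as covariate let-7i-5p and let-7j lost theirs while miR-98-5p gained one (0.60). For 14 months against 6 weeks, library totals turned round let-7d-5p (-0.0015), let-7e-5p (-0.054), let-7f-5p (-0.070), let-7g-5p (-0.053), let-7i-5p (-0.17), let-7j (-0.17) and miR-98-5p (-0.072). The library total as covariate turned round let-7g-5p (-0.0067), let-7i-5p (-0.14), let-7j (-0.14) and miR-98-5p (-0.066). Relative to the family total at 6 weeks against 1 week, sign changes concerned members that did not pass. let-7b-5p was 0.13 and let-7c-5p 0.086 without let-7g-5p in the total, and 0.18 and 0.015 with the covariate. let-7d-5p was -0.074 with the covariate and -0.062 without let-7j. With each library left out in turn, let-7b-5p ran from -0.15 to 0.12 and let-7d-5p from -0.028 to 0.11. The causes were not tested. The smallest library, at 641579 counts, limits rare entries such as the passenger arms more than the members.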
